A study of Homo sapiens with 30 samples.

Results

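A set of 10 genes of the Notch pathway was followed over 30 arrays of the leukaemia line LOUCY: the receptors NOTCH1, NOTCH2 and NOTCH3, the ligand JAG1, the glycosyltransferase LFNG, the DNA-binding factor RBPJ, the coactivator MAML2, and the pathway targets DTX1, NRARP and TRIB2. These 10 of the 19775 genes on the array were chosen by name, with earlier results of these data known. They were read by 25 of the 54613 probe sets tested, and 1 further probe set that names NOTCH2 together with another gene was left out. For each gene the probe set that was brightest on average is reported. The dimmer probe sets served as a check, and both probe sets of NOTCH1 are given throughout.

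Notch receptors are cleaved when a ligand on a neighbouring cell, such as Delta-like 1 or JAG1, pulls on them. The intracellular part, ICN, then enters the nucleus, binds RBPJ on DNA, recruits a Mastermind coactivator (MAML) and switches on target genes. Several targets, among them DTX1 and NRARP, act back on the pathway, and in the thymus this signal commits early progenitors to the T lineage.

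LOUCY is an established line of early T cell precursor acute lymphoblastic leukaemia (ETP-ALL) with an endogenous MEF2C rearrangement. MEF2C is a transcription factor of early haematopoietic cells, and the study asked how its induction and Notch signalling act on each other. The 3 derived lines carried a MEF2C construct, an ICN construct or both, and each was profiled without and with doxycycline ("no overexpression" and "overexpression" in the labels). The MEF2C line was grown in medium, on OP9-GFP or on OP9-DL1, and both ICN-carrying lines are labelled with no stroma. The MEF2C line is a bulk line made by lentiviral transduction and sorting, and whether the ICN-carrying lines are bulk lines or clones was not given in the sources used here. OP9 is a mouse stromal line, and OP9-DL1 displays Delta-like 1 where OP9-GFP does not. Doxycycline was used at 0.5 µg/mL, and MEF2C induction for the arrays lasted 24 hours. The induced MEF2C was codon-optimised, lacked the β domain and ran from a doxycycline-responsive promoter. The ICN construct and its induction time were not described in the sources used here. Each of the 10 conditions had 3 arrays, which are not said to come from separate cultures, so a p-value here speaks only of the array-to-array spread, possibly technical. No line without a construct was given doxycycline, so the drug and the induced protein cannot be told apart. In bulk RNA, fewer cells of a type and less RNA per cell cannot be told apart either.

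All values are robust multi-array average (RMA) signals on the log2 scale, where 1 unit is a 2-fold difference. Array medians lay between 4.75 and 4.84, and arrays of a condition correlated at 0.99 to 0.998 over all probe sets. Signals of different probe sets are not on a common scale, so levels were compared within a gene and not between genes. A gene was called when limma gave a p adjusted over all probe sets under 0.05. Of the 3 probe sets annotated to MEF2C in the table used here, 207968_s_at rose with doxycycline in every MEF2C-carrying culture, from a mean of 7.68 to 8.21 in medium, and the other 2 fell. The study states that 1 MEF2C probe set also covers its construct and that the others read only endogenous MEF2C. It reports endogenous MEF2C as repressed by the induction. Of the leukocyte and T lineage markers, CD2 was the only one of 10 below the array median on all 30 arrays. HDAC2, a histone deacetylase, had group means of 2.33 and 2.42 in the line with both constructs and of 9.75 to 10.35 in the other 8 conditions, a difference between lines that was there before doxycycline. Whether this line differs from the others in more than its labelled constructs was not tested. In every comparison of its changes with another line's (MAML2, TRIB2, NOTCH2 and NOTCH3 below among them), line and construct cannot be told apart.

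**Figure D1:**
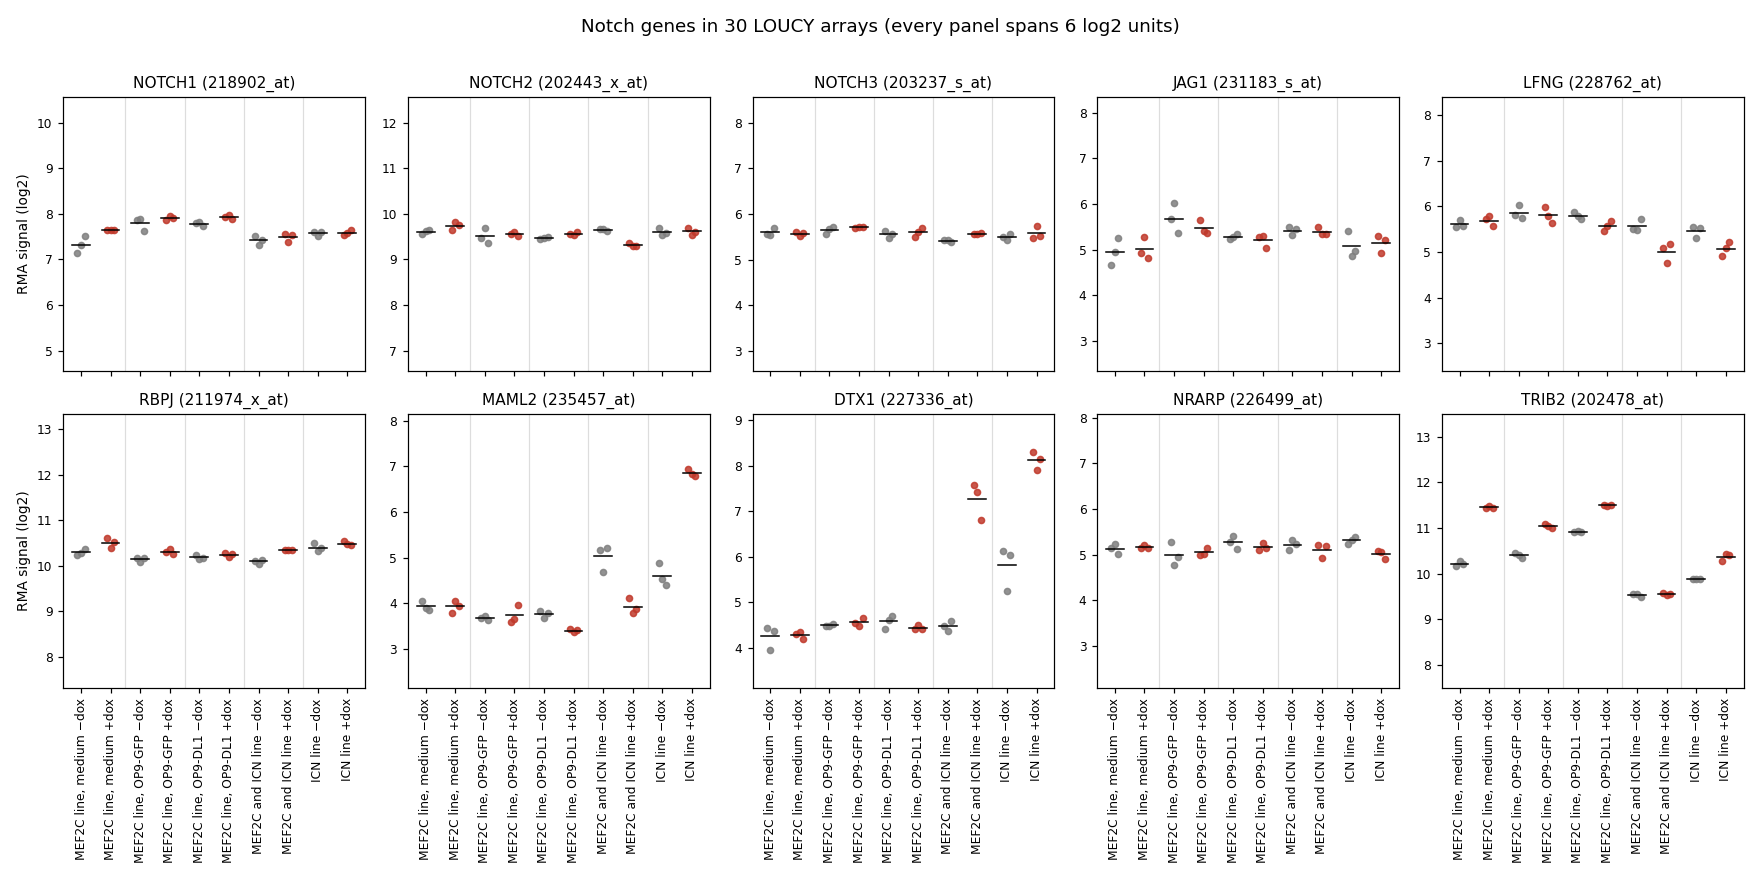
RMA signal (log2) of the 10 genes on each of the 30 arrays, by condition. Grey points are arrays without and red points arrays with doxycycline, black lines are means of 3 arrays, and every panel spans the same number of log2 units. DTX1, MAML2 and TRIB2 move most, with group means spread over 3.86, 3.45 and 1.97, while NOTCH3 by this probe set spreads over 0.29.

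Most of the 10 genes differed little between conditions. The group means of DTX1 spanned 3.86, those of MAML2 3.45 and those of TRIB2 1.97, whereas the other 7 spanned between 0.29 (NOTCH3) and 0.86 (LFNG). MEF2C induction over the 3 cultures, 9 arrays against 9, called 1 of the 10 higher and none lower, TRIB2, against 3.4% of all genes higher and 3.79% lower. This fit has no term for culture, and with one NOTCH1 (0.19, adjusted p = 0.02) and RBPJ (0.14, adjusted p = 0.031) were called higher as well. The median difference of the 10 was 0.01, and that of all genes was -0.01. At an unadjusted p under 0.05, 2 of the 10 passed in that comparison. ICN induction called 3 higher and 1 lower, where 6.44% of all genes rose and 9.42% fell, with a median of 0.07 for the 10 and -0.03 for all genes. Induction of MEF2C and ICN together called 2 higher and 3 lower, where 5.84% of all genes rose and 10.9% fell, with medians of 0.00 and 0.02.

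NOTCH1, the receptor most often mutated in T cell leukaemia, had its lowest mean in the MEF2C line in medium without doxycycline. By its brighter probe set, 218902_at, the 3 arrays without doxycycline read 7.14, 7.32 and 7.50, and each of the 3 with doxycycline read 7.64. The groups did not overlap, and the difference was 0.32 ± 0.08 (SE, n = 3 and 3; adjusted p = 0.013). In medium 3 of the 10 genes were called higher and none lower, where 5.03% of all genes rose and 3.58% fell. The NOTCH1 call was lost without the lowest untreated array, which gave a difference of 0.23 (adjusted p = 0.14), and in a fit of these 6 arrays alone (adjusted p = 0.17). It was also lost with the mean of the NOTCH1 probe sets. On OP9-GFP the untreated arrays read 7.86, 7.90 and 7.62, all above the untreated arrays in medium, a difference of 0.47 ± 0.08 (adjusted p = 0.0001), which a fit of only these 6 arrays did not call (adjusted p = 0.062). Doxycycline on OP9-GFP gave 7.87, 7.96 and 7.90, and on OP9-DL1 the arrays ran from 7.74 to 7.81 without and from 7.88 to 7.98 with it. Neither of these 2 changes was called (0.12 and 0.14, adjusted p = 0.48 and 0.49). The order of the group means ran from OP9-DL1 with doxycycline at 7.93 down to medium without it at 7.32, and of the 9 pairs of neighbours in it only OP9-DL1 without doxycycline (7.78) and medium with doxycycline (7.64) did not overlap. The dimmer probe set, 223508_at, had means of 4.05 without and 4.13 with doxycycline in medium. Its means without and with doxycycline were 4.43 and 4.34 on OP9-GFP and 4.38 and 4.38 on OP9-DL1.

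The 2 probe sets of NOTCH1 differed where ICN was induced. The brighter one did not move, with 7.59, 7.52 and 7.60 in the ICN line without doxycycline and 7.53, 7.58 and 7.64 with it (difference 0.01, adjusted p = 0.96), and 0.07 in the line with both constructs (adjusted p = 0.66). The dimmer one, 223508_at, read 4.41, 4.37 and 4.19 in the ICN line and 4.76, 4.60 and 5.29 with doxycycline, an increase of 0.56 ± 0.15 (adjusted p = 0.013). In the line with both constructs it read 4.23, 4.19 and 4.29 and then 4.90, 5.17 and 5.07, an increase of 0.81 ± 0.15 (adjusted p = 0.00035). Neither pair of groups overlapped. In the 6 conditions of the MEF2C line it stayed between 3.87 and 4.65, and its change with both constructs exceeded that with MEF2C in medium by 0.72 (adjusted p = 0.036). Which part of the transcript, and of the ICN construct, each probe set reads was not given in the sources used here, so transgene and endogenous NOTCH1 cannot be told apart in these signals.

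NOTCH2, another receptor of the family, was called with doxycycline only where both constructs were induced. Its 24 arrays from the MEF2C line and the ICN line lay between 9.36 and 9.82. The line with both constructs read 9.66, 9.66 and 9.61 without doxycycline and 9.36, 9.29 and 9.30 with it. The groups did not overlap, and NOTCH2 fell by 0.33 ± 0.07 (adjusted p = 0.0011). Another probe set, 212377_s_at, fell by 0.39 (adjusted p = 0.0001). In the ICN line the difference by the brightest probe set was 0.01, and the difference between the lines' changes was -0.34 (adjusted p = 0.029). That call was lost on leaving out any 1 of 8 of the 12 arrays (untreated replicates 1 and 2 and induced replicates 2 and 3 with both constructs, untreated replicates 2 and 3 and induced replicates 1 and 3 of the ICN line), with an adjusted p of 0.051 to 0.083, and with the mean of the NOTCH2 probe sets (-0.25, adjusted p = 0.069), while by 212377_s_at it was -0.40 (adjusted p = 0.0067). A further probe set, 210756_s_at, was called in neither line, with changes of -0.15 with ICN (adjusted p = 0.30) and -0.19 with both (adjusted p = 0.17) that differed by -0.03 (95% interval -0.28 to 0.21, adjusted p = 0.92).

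NOTCH3, a receptor gene known to respond to Notch signalling in T cell leukaemia, gave 2 different answers. Its brighter probe set, 203237_s_at, stayed between 5.38 and 5.74 on all 30 arrays. It was called in no comparison with the deposited values of all arrays and probe sets. Before doxycycline, its difference between the line with both constructs and the MEF2C line in medium was -0.19 (adjusted p = 0.063). That difference was called without probe sets averaging under 5 (adjusted p = 0.023) and after quantile normalization (-0.22, adjusted p = 0.028). The dimmer one, 203238_s_at, read 4.56, 4.25 and 4.19 in the ICN line without doxycycline and 6.15, 5.50 and 5.97 with it. The 3 induced arrays were the highest of all 30, and the increase was 1.54 ± 0.13 (adjusted p = 9.3e-10), a 2.90-fold difference. With both constructs the same probe set read 4.05, 4.20 and 4.05 and then 4.38, 4.38 and 4.50, a difference of 0.32 that was not called (adjusted p = 0.11). The change with both constructs was smaller than that with ICN alone by 1.22 (adjusted p = 2.5e-05). In the MEF2C line the probe set stayed between 3.79 and 4.32 under every culture, OP9-DL1 included.

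**Figure D2:**
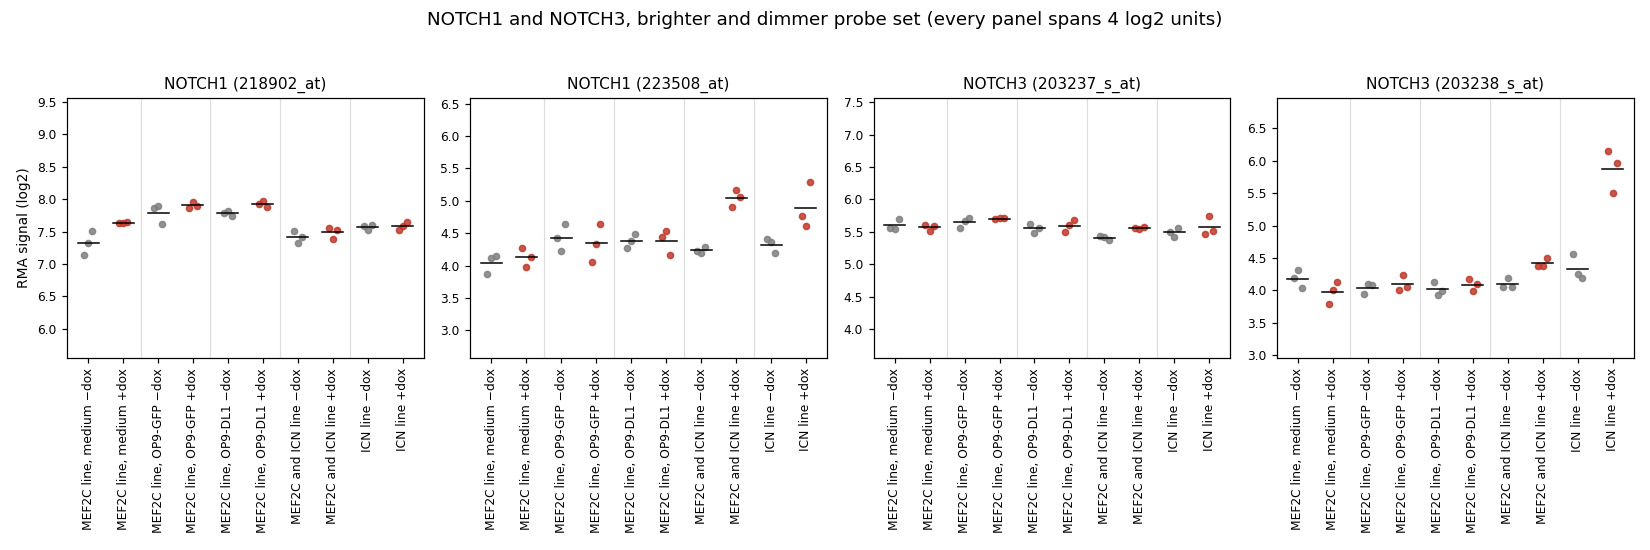
RMA signal (log2) of the brighter and the dimmer probe set of NOTCH1 and of NOTCH3 on each array, by condition, with grey points for arrays without and red points for arrays with doxycycline and black lines for means of 3 arrays. Only the dimmer probe sets were called with doxycycline in the ICN-carrying lines, 223508_at up by 0.56 and 0.81 and 203238_s_at up by 1.54 in the ICN line.

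JAG1, a ligand that engages Notch receptors on neighbouring cells, differed with the stroma. Its arrays read 4.66, 4.94 and 5.26 in medium without doxycycline and 5.66, 6.02 and 5.36 on OP9-GFP. The groups did not overlap, and the difference was 0.73 ± 0.16 (adjusted p = 0.0018), with 2 of the 5 dimmer probe sets also called higher. Those 5 averaged from 2.40 to 4.49 over the 30 arrays, under the array medians. The brightest of the 5, 229924_s_at, had means of 4.52 in medium and 4.55 on OP9-GFP. By the probe set reported for JAG1, a fit of only these 6 arrays gave an adjusted p of 0.055. On OP9-DL1 the untreated arrays read 5.22, 5.27 and 5.33, a mean 0.41 below that on OP9-GFP, which was not called (adjusted p = 0.30). JAG1 was not called with doxycycline in any of the 5 pairs of conditions, with differences from -0.21 to 0.06. Between OP9-GFP and medium 3 of the 10 genes were called higher (JAG1, NOTCH1 and TRIB2) and none lower, while 10.8% of all genes were higher and 11.5% lower. Of 20 markers of stromal cells, COL1A2 and COL6A3 were higher on OP9-GFP, by 0.80 and 0.72, and 4 were lower. The summed linear signal of the 20 ran from 1153.2 to 1263.4 on OP9-GFP and from 1218.6 to 1321.8 in medium. Among the 20, 9 (COL3A1, PDGFRA and PDGFRB among them) were below the array median on all 30 arrays. The arrays were designed for human RNA, and the part of mouse stromal RNA in these differences was not tested.

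LFNG adds a sugar to Notch receptors that changes which ligands they answer to. Its arrays read 5.54, 5.31 and 5.52 in the ICN line without doxycycline and 4.92, 5.08 and 5.22 with it. With both constructs they read 5.51, 5.49 and 5.71 and then 5.09, 4.76 and 5.17. The 6 induced arrays were the 6 lowest of the 30. LFNG fell by 0.39 ± 0.11 with ICN (adjusted p = 0.020) and by 0.56 ± 0.11 with both (adjusted p = 0.00056). The first call was lost without any 1 of 3 arrays, untreated replicate 1, untreated replicate 3 or induced replicate 1, where the decrease was 0.31 to 0.36 (adjusted p of 0.077 to 0.12). That call was also lost in a fit of only the arrays compared and with the mean of the LFNG probe sets. The other probe set, 215270_at, was called in neither line. In the MEF2C line LFNG was called in none of the comparisons, with arrays between 5.47 and 6.03. The change with both constructs was below that with MEF2C in medium by 0.64 (adjusted p = 0.0085). With the mean of the LFNG probe sets this difference was not called (adjusted p = 0.11).

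RBPJ, the factor through which ICN reaches DNA, read from 10.04 to 10.62 over the 30 arrays by its brightest probe set. With both constructs it read 10.12, 10.04 and 10.14 without doxycycline and 10.35 on each of the 3 arrays with it, an increase of 0.25 ± 0.06 (adjusted p = 0.0062). In the ICN line the arrays overlapped, with a difference of 0.09 (adjusted p = 0.44). In the MEF2C line in medium it read 10.24, 10.29 and 10.36 and then 10.62, 10.39 and 10.52, a difference of 0.22 (adjusted p = 0.037). That call did not hold without untreated replicate 1 or 2 or induced replicate 1 or 3 (adjusted p of 0.085 to 0.23) or in a fit of the 6 arrays alone (adjusted p = 0.32). On OP9-GFP the difference was 0.17 (adjusted p = 0.12) and on OP9-DL1 0.05 (adjusted p = 0.85).

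The other RBPJ probe sets gave another picture of the ICN-carrying lines. The nearly as bright 207785_s_at read 9.89, 10.01 and 9.86 in the ICN line without doxycycline and 10.12, 10.20 and 10.13 with it, groups that did not overlap, with a difference of 0.22 that missed the threshold (adjusted p = 0.060). With both constructs its difference was 0.14 and its arrays overlapped (adjusted p = 0.27). The dimmer 229540_at was called for doxycycline in neither line, but in the uninduced ICN line it stood 0.51 above the MEF2C line in medium (adjusted p = 0.0014).

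RBPJ recognises the DNA core GTGGGAA. This core was searched on both strands in the RefSeq windows of 250 bases before to 50 after each gene start (build GRCh38.p14), where 6.25% of 35116 windows held it. Windows were given for 9 of the 10 genes, 14 in all, and DTX1 had none. Only 1 of the 14 held the core, at 1 of the 5 starts given for RBPJ itself. The stretch is shown beside those of HES1 and HES4, Notch targets picked for comparison and the only other genes searched by name, with the core in capitals (TTCCCAC is the same core on the other strand). The sequences run 5′ to 3′ along each gene, at chr4:26319621-26319689 (plus strand) for RBPJ, chr3:194136032-194136100 (plus strand) for HES1 and chr1:1000137-1000205 (minus strand) for HES4.
RBPJ: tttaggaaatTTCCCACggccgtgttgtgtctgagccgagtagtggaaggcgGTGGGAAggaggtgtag
HES1: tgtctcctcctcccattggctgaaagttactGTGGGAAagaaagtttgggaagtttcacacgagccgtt
HES4: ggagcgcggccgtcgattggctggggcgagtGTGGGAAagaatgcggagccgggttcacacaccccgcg
The cores begin 115 and 73 bases before the RBPJ start, 85 before that of HES1 and 77 before that of HES4. A match is a run of letters and not a site known to be bound in these cells, and a window without it says only that these letters are not in it.

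MAML2, a Mastermind coactivator that joins ICN and RBPJ on DNA, moved in opposite directions in the 2 ICN-carrying lines. In the ICN line its arrays read 4.87, 4.53 and 4.41 without doxycycline and 6.94, 6.82 and 6.80 with it, an increase of 2.25 ± 0.13 (adjusted p = 5.7e-13), or 4.75-fold. In the line with both constructs they read 5.18, 4.69 and 5.20 and then 4.12, 3.78 and 3.87, and MAML2 fell by 1.10 ± 0.13 (adjusted p = 2.1e-07), or 2.15-fold. The groups did not overlap in either line, and the 3 induced ICN arrays stood above all others. The change with both constructs was below that with ICN alone by 3.35 ± 0.18 (adjusted p = 3.7e-13).

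Before doxycycline both ICN-carrying lines already read higher for MAML2 than the MEF2C line in medium, by 0.67 (adjusted p = 0.00027) and 1.09 (adjusted p = 3.2e-07). In the MEF2C line MAML2 lay between 3.36 and 4.05 on all 18 arrays, below the array medians. It was called in no comparison there when all arrays and probe sets were used. With the mean of the MAML2 probe sets, OP9-GFP without doxycycline was called against medium (-0.25, adjusted p = 0.049). The lowest MAML2 values, 3.42, 3.36 and 3.41, came from OP9-DL1 with doxycycline, against 3.83, 3.68 and 3.78 without it. That difference, -0.36, had an adjusted p of 0.12, and a fit of only these arrays called it (adjusted p = 0.032). With both constructs and doxycycline the mean, 3.92, overlapped the levels of the MEF2C line in medium, 3.93 with and without doxycycline. The other MAML2 probe set, 235106_at, stayed between 2.60 and 3.47 and was called nowhere, and its 3 induced ICN arrays read 3.33, 3.38 and 3.39.

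DTX1, a ubiquitin ligase of the Deltex family and a Notch target, rose with ICN in both lines. The ICN line read 6.13, 5.25 and 6.05 without doxycycline and 8.31, 7.91 and 8.14 with it, an increase of 2.31 ± 0.18 (adjusted p = 3.9e-10), or 4.96-fold. The line with both constructs read 4.48, 4.38 and 4.59 and then 7.58, 7.41 and 6.80, an increase of 2.78 ± 0.18 (adjusted p = 5.2e-12), or 6.86-fold. Neither pair of groups overlapped. The changes differed by 0.47 (95% interval -0.06 to 0.99, adjusted p = 0.33), so a difference anywhere in that interval was not resolved with 3 arrays a group. It rested in part on the untreated ICN array at 5.25, without which the difference was 0.75 and was called (adjusted p = 0.034).

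The DTX1 levels before doxycycline differed between the lines. The uninduced ICN line was 1.55 ± 0.18 above the MEF2C line in medium (adjusted p = 4e-07), whose arrays read 4.44, 3.96 and 4.37, and the uninduced line with both constructs was 0.23 above it (adjusted p = 0.43). In the MEF2C line all 18 arrays lay between 3.96 and 4.71, and DTX1 was called neither with doxycycline nor between the 2 stromas (OP9-DL1 minus OP9-GFP 0.09 without and -0.11 with doxycycline, adjusted p = 0.90 and 0.94). The group means ordered as ICN line induced (8.12), both constructs induced (7.26) and ICN line uninduced (5.81), each apart from the next, and the other 7 conditions between 4.58 and 4.26.

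NRARP, a small protein that dampens Notch signalling and is itself a Notch target, was called in none of the comparisons when all arrays and probe sets were used. Its 30 arrays lay between 4.77 and 5.40. In the ICN line it read 5.23, 5.33 and 5.39 without doxycycline and 5.08, 5.07 and 4.90 with it. These groups did not overlap and the induced ones were lower, with a difference of -0.30 (95% interval -0.52 to -0.08) that missed the threshold (adjusted p = 0.063). The same difference was called where probe sets with a mean under 5 were left out (adjusted p = 0.031). It was also called in the fit to the mean of each gene's probe sets (adjusted p = 0.042). With both constructs the difference was -0.11 (adjusted p = 0.60). On OP9-DL1 it was 0.27 above OP9-GFP without doxycycline (adjusted p = 0.29) and 0.12 with it (adjusted p = 0.84). Without replicate 1 of untreated OP9-GFP, the first difference was 0.41 and was called (adjusted p = 0.028). NRARP has a single probe set here, close to the array medians.

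**Figure D3:**
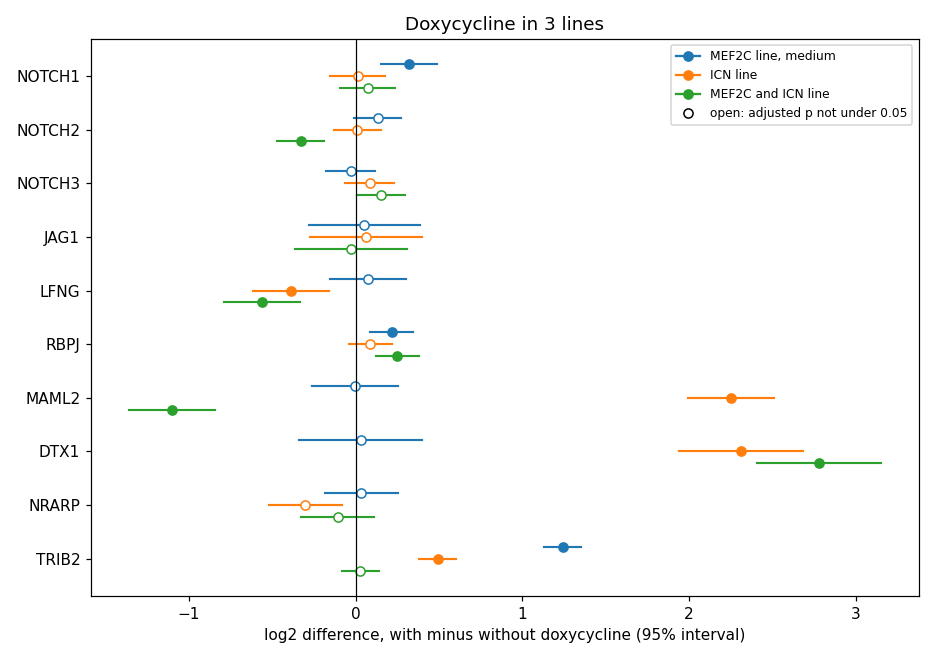
Difference in log2 signal with minus without doxycycline for each of the 10 genes in the MEF2C line in medium, the ICN line and the line with both constructs. Points are limma estimates from 3 arrays against 3, lines are 95% intervals and open points were not called. MAML2 lies at 2.25 in the ICN line and at -1.10 with both constructs, while DTX1 rises in both, by 2.31 and 2.78.

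TRIB2, a pseudokinase of the Tribbles family that is known as a Notch-responsive gene in leukaemia, was the only one of the 10 called for MEF2C in every culture. In medium its arrays read 10.16, 10.28 and 10.22 without doxycycline and 11.44, 11.49 and 11.45 with it. On OP9-GFP they read 10.46, 10.40 and 10.34 and then 11.09, 11.05 and 11.00, and on OP9-DL1 10.91, 10.94 and 10.90 and then 11.50, 11.47 and 11.51. The groups did not overlap in any culture.

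The increases of TRIB2 were 1.24 ± 0.05 in medium (adjusted p = 1.1e-14), 0.65 ± 0.05 on OP9-GFP (adjusted p = 4.2e-09) and 0.58 ± 0.05 on OP9-DL1 (adjusted p = 3.6e-08). Over the 3 cultures it was 0.82 ± 0.12 (adjusted p = 9.3e-05), or 1.77-fold. The increase was smaller on OP9-GFP than in medium by 0.60 ± 0.08 (adjusted p = 9.6e-05), a comparison added after the values were seen, in which TRIB2 was the 1 gene of the 10 called and 0.491% of all genes were called. The increases on both stromas differed by -0.07 (95% interval -0.23 to 0.09, adjusted p = 0.88). For the difference between stromas none of the 10 was called by limma, 1 passed at an unadjusted p under 0.05, and 0.131% of all genes were called. On OP9-GFP doxycycline called 3.03% of all genes higher and 4.58% lower, and on OP9-DL1 2.57% and 3.33%.

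**Figure D4:**
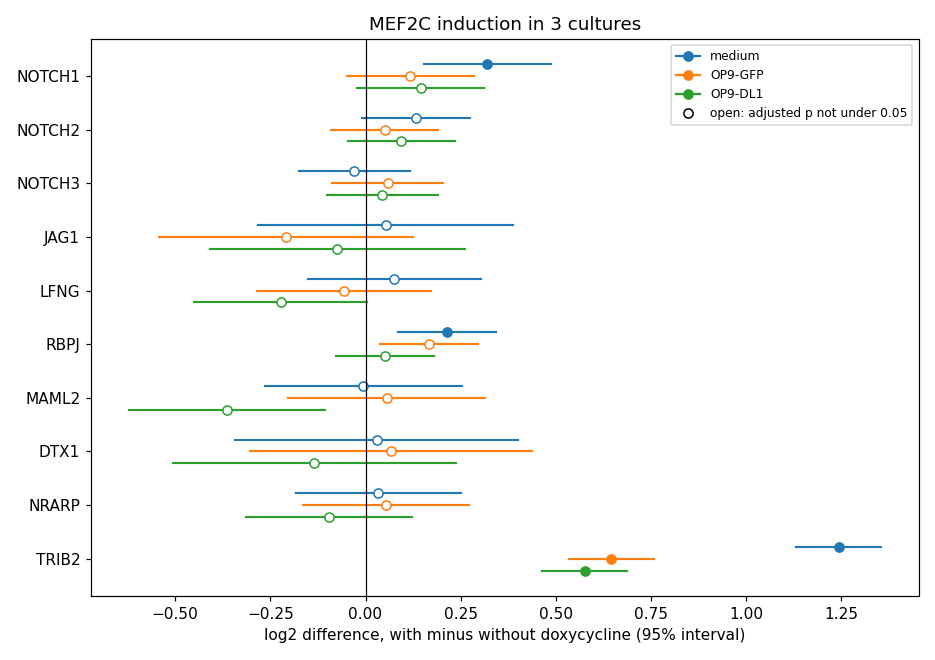
Difference in log2 signal with minus without doxycycline for each of the 10 genes in the MEF2C line under each of its 3 cultures (medium, OP9-GFP, OP9-DL1). Points are limma estimates from 3 arrays against 3, lines are 95% intervals and open points were not called. TRIB2 stands at 1.24, 0.65 and 0.58, and only NOTCH1 (0.32) and RBPJ (0.22) in medium are also called.

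TRIB2 was also the only one of the 10 called between the stromas, where 3 of the 10 passed at an unadjusted p under 0.05 in each of the 2 comparisons. It was higher on OP9-DL1 than on OP9-GFP by 0.52 ± 0.05 without doxycycline (adjusted p = 9.7e-07) and by 0.45 ± 0.05 with it (adjusted p = 9.7e-06), while 1.02% of all genes were higher and 0.612% lower in the first comparison and 0.92% and 0.48% in the second. A fit of only the 6 untreated arrays gave an adjusted p of 0.079 for the first. None of the 20 stromal markers was called in either comparison. OP9-GFP without doxycycline was above medium by 0.19 ± 0.05 (adjusted p = 0.015), a call lost without medium replicate 1 (adjusted p = 0.078) or OP9-GFP replicate 1 (adjusted p = 0.079). The comparisons share arrays, so they are not independent of each other.

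In the ICN line TRIB2 read 9.88, 9.89 and 9.87 without doxycycline and 10.27, 10.43 and 10.41 with it, an increase of 0.49 ± 0.05 (adjusted p = 1.8e-07). In the line with both constructs it read 9.54, 9.55 and 9.49 and then 9.58, 9.53 and 9.54, with overlapping groups and a difference of 0.03 (95% interval -0.08 to 0.14, adjusted p = 0.83). That change was below the one in the ICN line by 0.46 ± 0.08 (adjusted p = 0.00013) and below the one with MEF2C in medium by 1.22 ± 0.08 (adjusted p = 8.7e-12). In the comparison of both constructs with ICN alone, 3 of the 10 genes were called (MAML2, NOTCH2 and TRIB2) against 10.1% of all genes, and in that with MEF2C in medium 5 (these 3, DTX1 and LFNG) against 10.5%.

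The uninduced levels of TRIB2 were below those of the MEF2C line in medium by 0.34 (adjusted p = 3.9e-05) in the ICN line and by 0.69 (adjusted p = 4.1e-10) with both constructs. The group means ordered from OP9-DL1 with doxycycline (11.50) and medium with doxycycline (11.46), which overlapped, to both constructs with (9.55) and without doxycycline (9.53), which overlapped too. The other TRIB2 probe set, 202479_s_at, was called in the same direction for MEF2C in each culture (0.80 against 0.65 on OP9-GFP), for OP9-DL1 against OP9-GFP, for ICN and for both constructs against each single one. It was not called for OP9-GFP against medium (0.03, adjusted p = 0.89) or for the smaller increase on OP9-GFP than in medium (-0.41, adjusted p = 0.29).

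Before any doxycycline, the ICN-carrying lines and the MEF2C line were already apart. In the ICN line 3 of the 10 were higher (DTX1, MAML2 and NOTCH1) and TRIB2 was lower, where 12.9% of all genes were higher and 12.3% lower. The NOTCH1 difference there, 0.25 (adjusted p = 0.026), was lost without replicate 1 or 2 of the MEF2C line or replicate 1 or 3 of the ICN line (adjusted p of 0.054 to 0.21) and after quantile normalization (adjusted p = 0.094). By the dimmer NOTCH1 probe set the uninduced means were 4.05 in the MEF2C line in medium and 4.32 in the ICN line. In the line with both constructs JAG1 and MAML2 were higher and RBPJ and TRIB2 lower, where 12.0% of all genes were higher and 11.9% lower. JAG1 at 0.47 (adjusted p = 0.042) was lost without replicate 1 or 2 of the MEF2C line or replicate 1 or 3 of the line with both (adjusted p of 0.088 to 0.25), and RBPJ at -0.20 (adjusted p = 0.025) without replicate 3 of the MEF2C line or replicate 1 or 2 of the line with both (adjusted p of 0.054 to 0.11). Line, construct and culture cannot be told apart in these comparisons.

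The other genes of the pathway were read from fixed lists of 65, of which 60 had a probe set of their own. MEF2C over the 3 cultures called 2 of the 60 higher and 4 lower, with a median of 0.02, where 3.4% of all genes rose and 3.79% fell. ICN called 12 higher and 9 lower, where 6.44% of all genes rose and 9.42% fell, and both constructs 7 higher and 9 lower, where 5.84% rose and 10.9% fell. The medians of the 60 were 0.09 and 0.04. Their largest increases with ICN and with both constructs were those of HEY1 and IL7R, targets in T cells. HEY1, a repressor of the Hairy family, rose by 4.96 ± 0.10 with ICN (adjusted p = 3.7e-21) and by 2.26 ± 0.10 with both constructs (adjusted p = 5.8e-15), and IL7R, the interleukin 7 receptor chain, rose by 1.87 and 4.65. HES1, the founding Hairy-type target, rose by 0.40 with ICN and by 1.57 with both, from uninduced means of 10.19 and 9.34. Before doxycycline HES1 already stood 4.61 above the MEF2C line in medium in the ICN line and 3.75 above it in the line with both. In the uninduced ICN line IL7R was 3.11 and HEY1 2.07 above the MEF2C line.

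**Figure D5:**
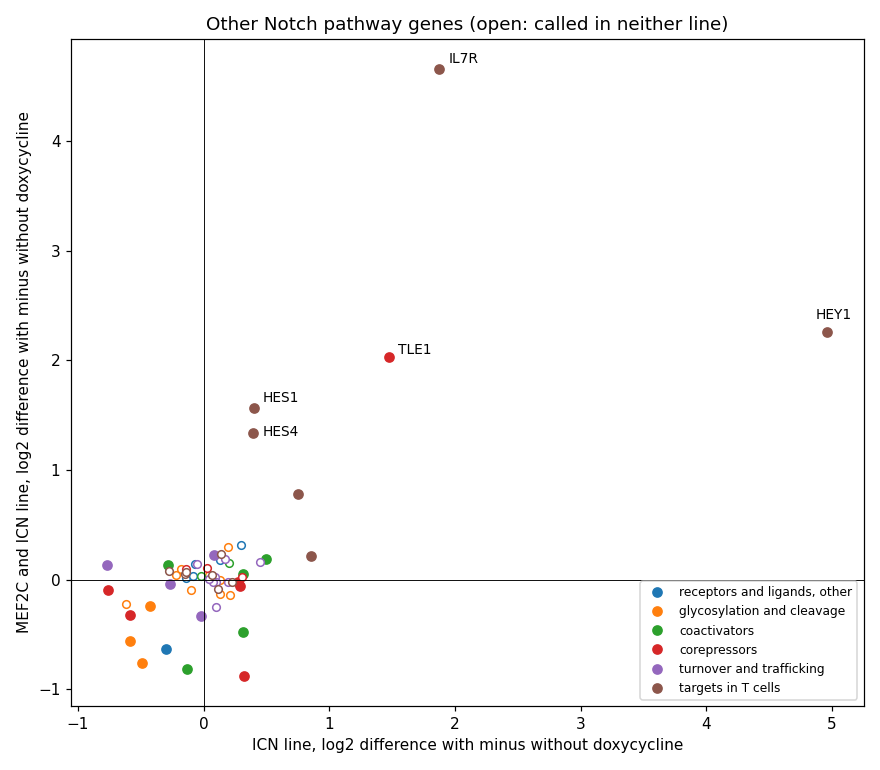
Difference in log2 signal with minus without doxycycline for 60 other Notch pathway genes, in the ICN line (horizontal) and in the line with both constructs (vertical), coloured by list. Filled points were called in at least 1 of the lines. HEY1 lies far to the right at 4.96 and IL7R at the top at 4.65, and most other genes lie near 0.

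Among the targets, 5 of 13 measured were called higher in each line and none lower. For this and the following lists the shares of all genes called were the 6.44% higher and 9.42% lower with ICN and the 5.84% and 10.9% with both, and no list was tested against them. SHQ1 rose by 0.75 and 0.78, IGF1R by 0.85 with ICN alone, and HES4, one of the genes shown with the RBPJ core, by 1.34 with both. Of 9 corepressors, 4 rose and 2 fell with ICN and 1 rose and 2 fell with both. TLE1, a Groucho-type corepressor, rose in both lines, by 1.48 and 2.03, TLE2 fell by 0.76 with ICN, and TLE3 fell by 0.87 with both. Of 7 coactivators, 3 rose and 1 fell with ICN, and with both none rose and 2 fell, MAML3, a sister gene of MAML2, by 0.82 and KAT2B by 0.48. Of 12 genes of receptor glycosylation and cleavage, 3 fell in each line and none rose, among them APH1B, a γ-secretase subunit, by 0.76 with both.

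Of 6 other receptors and ligands, 1 fell in each line, the ligand JAG2, by 0.30 with ICN and by 0.63 with both. Of 13 genes of turnover and trafficking, none rose and 2 fell with ICN, DTX4, a relative of DTX1, by 0.77, and 1 rose and 1 fell with both. With MEF2C in medium the called pathway genes beyond 0.6 were ADAM10, the protease that sheds the receptor, up by 0.68, TLE2 by 0.72 and IL7R by 0.83.

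On OP9-DL1 against OP9-GFP without doxycycline, 4 of the 13 targets were higher, HES1 by 1.89, IL7R by 0.92, HEY1 by 0.74 and SHQ1 by 0.30, where 1.02% of all genes were higher, while DTX1 and NRARP were not called. OP9-GFP without doxycycline was itself above medium for HES1 by 1.86, HEY1 by 0.67 and SHQ1 by 0.33, while IL7R was not called there. Of the 60 pathway genes 13 were higher and 3 lower in that comparison, where 10.8% of all genes were higher and 11.5% lower. Between OP9-DL1 and OP9-GFP with doxycycline HES1 differed by 3.19. With MEF2C it fell by 1.81 on OP9-GFP and by 0.51 on OP9-DL1, changes that differed by 1.30 (adjusted p = 6.1e-05), and in medium it was not called. The leukocyte and T lineage markers moved beside these results. Over the 3 cultures 8 of those 10 fell with MEF2C, where 3.79% of all genes fell. With ICN 4 rose and 4 fell, where 6.44% and 9.42% of all genes did. CD3D, CD3E, CD3G and LCK rose by 0.74, 0.81, 1.25 and 0.98. PTPRC, LYL1, LMO2 and HHEX fell by 0.50, 0.96, 0.82 and 0.65. With both 1 rose and 4 fell, where 5.84% and 10.9% did. CD3D rose by 0.55, and PTPRC, LCK, LYL1 and HHEX fell by 1.66, 0.34, 1.55 and 0.71. The study counts LYL1, LMO2 and HHEX in a stem cell signature. The summed linear signal of the 10 markers went from between 12792 and 13138 to between 16811 and 18024 with ICN, and from between 11737 and 12046 to between 9743.7 and 9880.2 with both. Their part in the changes of the 10 genes was not tested.

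For the 3 genes with the widest spread of group means, the genes most like them over the 10 conditions were sought among 1705 genes whose group means ranged over at least 1 and averaged at least 5. The correlation is a description over 10 group means that share lines and cultures. For DTX1 they were LINC02762 (r = 0.995), SPRY4 (0.99) and DUXAP10 (0.99). LINC02762 went from 6.80 to 10.59 with ICN and from 5.24 to 9.11 with both. For MAML2 they were IFI6 (0.96), ATP2B1-AS1 (0.95) and CDH17 (0.95), and CDH17 went from 8.10 to 9.79 with ICN and from 7.42 to 5.86 with both. For TRIB2 they were MN1 (0.89), SLC6A13 (0.88) and FAM110A (0.88), and SLC6A13 went from 8.63 to 12.08 with MEF2C in medium, against 4.86 to 5.04 with both constructs and 5.94 to 4.17 with ICN.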

How the data were processed

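RNA of 30 LOUCY samples was hybridised to Affymetrix HG U133 Plus 2.0 arrays. The authors processed the arrays by RMA (affy 1.64.0, R 3.6.3) and deposited log2 values for 54675 probe sets. RMA normalises all arrays together, which removes shifts common to a whole array and compresses the differences of dim probe sets. The deposited table holds no detection calls. Here 62 control probe sets were left out. Of the rest, 41091 had 1 gene symbol, of which 41037 matched a RefSeq gene ID. Groups came from the sample labels. A linear model with 10 groups was fitted to all 54613 probe sets with limma 3.58.1 (R 4.3.3), with Benjamini-Hochberg adjustment and a threshold of 0.05. MEF2C over 3 cultures was fitted, as in the study's design, to the 18 arrays of the MEF2C line without a term for culture. The code was tested on simulated data. Genes named were all 10 members, genes of the pathway lists called with a difference beyond 0.6, some with a smaller one to complete a list, and the 3 most alike genes. The members and lists were chosen with earlier results of these data known. With 3 arrays a group, the number of arrays limits the precision. The alternatives tried were leaving out dim probe sets (mean under 5), quantile normalization, median centring, a trended and robust prior, the replicate number as a block, the mean of a gene's probe sets, only the arrays compared, culture as a covariate, a difference beyond 0.6, and leaving out each array or culture.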

Additional observations from a re-analysis of the deposited data

Results flagged for a closer look

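Several genes changed differently in 2 lines or cultures, by a test of the difference itself in limma. Between lines, line and construct cannot be told apart. With both constructs against ICN alone, the change was lower by 3.35 for MAML2, which rose in one line and fell in the other, by 0.46 for TRIB2 and by 0.34 for NOTCH2 (values of -3.35, -0.46 and -0.34), and by 1.22 for the NOTCH3 probe set 203238_s_at (-1.22). With both constructs against MEF2C in medium, the difference of changes was 2.75 for DTX1, -0.64 for LFNG, -1.10 for MAML2, -0.46 for NOTCH2, -1.22 for TRIB2 and 0.72 for the NOTCH1 probe set 223508_at. On OP9-GFP against medium, the change of TRIB2 with MEF2C differed by -0.60.

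Among the 9 uninduced arrays of the MEF2C line, DTX1 read 3.96 on replicate 2 in medium, apart from the other 8, and a gap of this size marks about 1 in 20 groups by chance.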

How the results depend on the processing

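Of 36 calls of single genes, 15 held in every alternative that measured the gene, 9 were lost only where a difference beyond 0.6 was asked for as well, 12 missed the threshold in at least 1 other alternative, and none turned its direction. Counts of the 10 genes called moved by over 1.5 times in 12 of 14 comparisons. MEF2C over 3 cultures went from 1 to 3 with culture as a covariate (NOTCH1 and RBPJ were added). With only the arrays compared, MEF2C in medium went from 3 to 1, on OP9-DL1 from 1 to 2, OP9-DL1 against OP9-GFP without doxycycline from 1 to 0, OP9-GFP against medium from 3 to 0, and uninduced both constructs against MEF2C from 4 to 2, where fewer arrays estimate the spread. MEF2C on OP9-GFP went from 1 to 2 without probe sets with a mean under 5 and with the trended prior. That filter also removed MAML2 and let NRARP pass with ICN. With a difference beyond 0.6 asked for as well, the counts were 1 for MEF2C in medium, 0 on OP9-DL1, 0 for OP9-DL1 against OP9-GFP in either case, 1 for OP9-GFP against medium, 2 for ICN, 2 for both constructs, 1 for both against ICN, and 2 and 2 for the uninduced ICN line and the uninduced line with both.

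Leaving out each array in turn gave 1 to 3 genes for MEF2C in medium, 1 to 2 for OP9-DL1 against OP9-GFP without doxycycline, 2 to 4 for OP9-GFP against medium (NOTCH2 was added, at -0.19, without untreated OP9-GFP replicate 2), 3 to 4 for ICN, 2 to 3 for both against ICN, 3 to 4 for the uninduced ICN line, and 2 to 3 for the uninduced line with both. Same-numbered arrays did not deviate together: in none of 45 pairs of groups were all 3 correlations over 0.1, and the replicate block left the 14 counts the same, 1 for MEF2C over 3 cultures and 4 for ICN among them. By the dimmer probe sets, NOTCH1 rose by 0.56 and 0.81 and NOTCH3 by 1.54 with ICN, a choice made after seeing the data. Dim signals lie near the array medians or under them, where differences are compressed. Over all arrays MAML2 averaged 4.28, and the dimmer probe sets of NOTCH1 and NOTCH3 averaged 4.42 and 4.31. In the induced ICN line the means of MAML2 (6.85) and of 203238_s_at (5.87) were above the array medians.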
